A study of Mus musculus with 12 samples.

Results

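Triglycerides are built in the hepatocyte by adding fatty acids one after another to glycerol-3-phosphate, and 6 genes of that route are described here through the open chromatin around them. They are Gpam, Agpat2, Lpin1, Lpin2, Dgat1 and Dgat2. Their members are the ATAC-seq peaks whose nearest gene, as annotated in the deposited table, is one of the 6, which gave 69 peaks of 52530 in all. Dgat2 had 19 of them, Gpam 15, Lpin1 15, Lpin2 12, Agpat2 6 and Dgat1 2. Of the 69 peaks, 14 lay within 1 kb of an annotated gene start and 55 farther away.

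Gpam encodes a mitochondrial glycerol-3-phosphate acyltransferase that adds the first fatty acid. Agpat2 adds the second, which gives phosphatidic acid, and the lipins remove its phosphate to give diacylglycerol. Dgat1 and Dgat2 add the last fatty acid. Lipin-1 is also known as a nuclear coactivator of fatty acid oxidation genes, and Lpin1 is known to be induced in mouse liver by fasting, glucocorticoids and cAMP, whereas Gpam is known as a target of insulin and SREBP-1c.

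ATAC-seq marks open chromatin by letting a transposase insert sequencing adapters there, and it was run on hepatocyte nuclei of female HEP-INTACT mice. In these mice the nuclei of one cell type carry a genetic tag by which they are pulled from whole liver on beads, and neither the promoter that drives the tag nor the age of the mice is stated in the labels. There were 4 groups of 3 libraries each: mice fasted for 16 h from ZT12, the onset of the active phase, with nuclei from fresh liver or from frozen liver, and mice fed ad libitum and killed at the same time point, again with fresh or frozen liver. All 12 libraries came from 6 mice of this 1 strain, and each mouse gave a fresh and a frozen library. In units of 1e+06 the libraries held 3.69 to 14.5 reads in peaks, with 51 to 217 single reads in the median peak. No batch or date is given for them. Of 6 hepatocyte markers, 5 had a peak within 1 kb of their start, Ttr being the exception. Stellate cells had 1 of 4 markers with such a peak (Reln), bile duct cells 1 of 4 (Sox9), and macrophages, endothelium and lymphocytes had none of 5, 5 and 4. The summed value of the 10 hepatocyte marker peaks was 2010 to 2180 normalized reads in fasted fresh and 1890 to 1930 in fed fresh libraries, and 2690 to 3080 in fasted frozen and 2360 to 2670 in fed frozen libraries. It was thus higher with fasting and with freezing, and its part in the results below was not tested.

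Gpam and Lpin2 each have annotated starts far apart in the same gene, and the results below turn on how open each start was in fasted and fed mice, so these promoter sequences are shown first. Each runs 5′ to 3′ on the strand of the gene, from 250 bases before to 50 after the start, from RefSeq on GRCm38.p6. Capitals mark the bases inside the 200-bp windows of the member peaks, both listed ends included. The Gpam entries are the upstream start (chr19:55127189-55127488, minus strand) and the downstream start (chr19:55099428-55099727, minus strand). The Lpin2 entries shown are called the first start (chr17:71183282-71183581, plus strand) and the second start (chr17:71204404-71204703, plus strand). Another Lpin2 entry between them (chr17:71183728-71184027, plus strand) overlapped no peak and is not shown.
Gpam upstream: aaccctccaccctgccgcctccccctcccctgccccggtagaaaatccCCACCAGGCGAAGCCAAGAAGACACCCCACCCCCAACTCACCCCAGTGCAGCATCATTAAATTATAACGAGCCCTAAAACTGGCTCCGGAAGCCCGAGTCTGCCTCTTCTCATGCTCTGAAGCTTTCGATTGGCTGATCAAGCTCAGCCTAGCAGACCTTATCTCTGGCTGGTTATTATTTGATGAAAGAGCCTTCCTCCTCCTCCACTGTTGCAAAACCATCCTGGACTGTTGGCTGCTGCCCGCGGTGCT
Gpam downstream: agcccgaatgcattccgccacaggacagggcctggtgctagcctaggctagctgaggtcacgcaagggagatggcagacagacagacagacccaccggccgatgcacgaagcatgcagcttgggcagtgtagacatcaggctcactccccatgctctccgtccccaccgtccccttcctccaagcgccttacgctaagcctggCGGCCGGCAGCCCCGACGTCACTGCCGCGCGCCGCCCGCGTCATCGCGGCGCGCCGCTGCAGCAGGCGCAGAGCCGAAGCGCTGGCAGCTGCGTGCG
Lpin2 first: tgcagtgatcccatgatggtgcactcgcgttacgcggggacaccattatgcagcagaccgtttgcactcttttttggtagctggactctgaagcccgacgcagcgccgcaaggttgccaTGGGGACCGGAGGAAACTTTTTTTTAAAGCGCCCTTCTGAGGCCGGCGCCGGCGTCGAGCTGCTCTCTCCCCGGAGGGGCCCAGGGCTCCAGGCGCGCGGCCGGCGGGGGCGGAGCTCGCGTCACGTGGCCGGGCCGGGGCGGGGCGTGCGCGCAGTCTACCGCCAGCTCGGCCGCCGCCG
Lpin2 second: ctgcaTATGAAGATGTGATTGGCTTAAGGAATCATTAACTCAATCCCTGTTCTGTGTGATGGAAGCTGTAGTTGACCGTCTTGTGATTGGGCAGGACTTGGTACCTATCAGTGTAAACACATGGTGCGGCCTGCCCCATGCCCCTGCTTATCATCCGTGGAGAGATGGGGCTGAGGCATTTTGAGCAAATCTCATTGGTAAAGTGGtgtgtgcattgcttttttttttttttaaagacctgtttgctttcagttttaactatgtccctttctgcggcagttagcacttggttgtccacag
In these 4 stretches 252, 97, 181 and 201 bases lay inside member peaks. The downstream Gpam promoter had 68.0% G and C and 30 CpG sites, against 55.7% and 9 in the upstream one. The first Lpin2 promoter had 68.7% and 37 CpG sites, and the second 45.0% and 4. The median of all promoters in the RefSeq table was 52.7% and 7. The motif CACGTG, searched on both strands, occurred in the first Lpin2 promoter and in 7.15% of all 32851 promoters, and TGTTTAC occurred in the second Lpin2 promoter and in 3.65% of all. TCACNCCAC (1.24% of all), ACANNNTGT (6.85%) and TGACGTCA (1.79%) were not among the letters of the 7 entries found for 4 of the 6 genes. The entry for Lpin1 and the Lpin2 entry not shown overlapped no peak. A match describes these letters only.

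Values below are normalized reads per 200-bp peak, that is reads divided by the authors' size factor of the library. Fresh and frozen libraries of one column letter (A, B or C within a feeding state) deviated together and were averaged as 1 mouse, and differences are on the log2(value + 1) scale with their standard error. In bulk nuclei, more nuclei with an open site and a more open site in each nucleus cannot be told apart. The nearest gene of a peak need not be the gene it regulates.

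Across the 6 genes, 25 of 69 peaks were higher in fasted mice, 10 were lower and 34 did not pass (limma on 3 fasted against 3 fed mice, adjusted p under 0.05 over all peaks). That is 50.7% of member peaks, against 34.6% of all 52530 peaks, of which 16.5% were higher and 18.1% lower. The median difference was 0.21 over the members and 0.05 over all peaks. Without an adjustment 45 of 69 had p under 0.05, as did 24278 of all 52530 peaks. This split changed with the normalization. When libraries were scaled so that peaks near gene starts had equal medians, the median of all peaks stood at -0.08, and 14 member peaks were higher and 14 lower. The count was 21 when fed mouse B was left out and 22 when fasted mouse A was left out. Calls over all peaks fell alongside, from 18163 to 11500 and 12411, and to 16910 when scaled to peaks near gene starts.

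By gene, higher and lower peaks numbered 6 and 2 of 15 at Gpam, 8 and 1 of 15 at Lpin1, 5 and 3 of 12 at Lpin2, and 6 and 4 of 19 at Dgat2. At Agpat2 and Dgat1 no peak passed by limma, and 2 of 6 and 1 of 2 had an unadjusted p under 0.05. Scaled to gene-start peaks, these counts were 5 and 3 at Gpam, 4 and 1 at Lpin1, 2 and 3 at Lpin2, 3 and 6 at Dgat2, 0 and 1 at Agpat2 and 0 and 0 at Dgat1, so the larger direction turned at Lpin2 and Dgat2.

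Within 1 kb of a start 6 of 14 member peaks were higher and 2 lower, where 24.2% of all such peaks were called. Beyond 1 kb 19 of 55 were higher and 8 lower, where 40.2% of all such peaks were called, and the median difference there was 0.22 for members and -0.05 for all. Of 23 member peaks annotated as intergenic 12 were higher and 2 lower, 60.9% called, against 40.2% of all intergenic peaks, of which 16.8% were higher and 23.4% lower. The Lpin1 peaks among these 23 lie inside the RefSeq extent of Lpin1, and some windows among the 23 overlap. Of 35 in introns 8 were higher and 7 lower. That share of 42.9% stood near the 38.5% of all intron peaks, of which 14.3% were higher and 24.2% lower. At 9 member peaks all 6 fasted libraries lay above all 6 fed ones, and at 5 below, together 20.3% of members against 12.9% of all peaks. In 7 pairs of neighbouring member peaks the windows overlapped, so that their reads were partly shared.

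**Figure D1:**
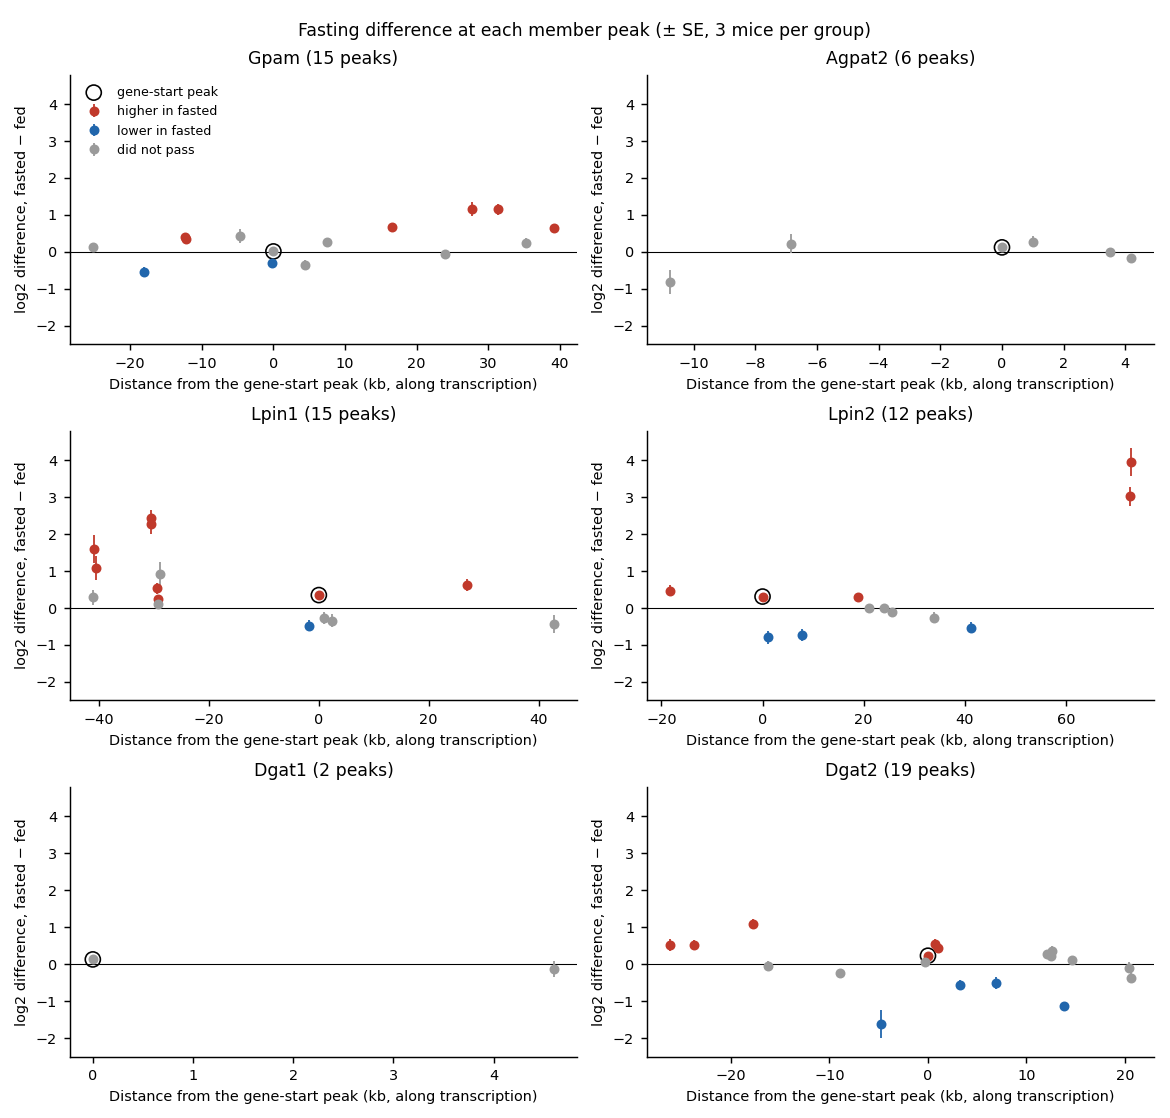
Difference of fasted and fed mice (log2, ± SE, 3 mice per group) at each of the 69 peaks, against its distance in kb from the gene-start peak along the direction of transcription, with 1 panel per gene. Red points were higher in fasted mice, blue lower, and grey did not pass; the gene-start peak is ringed. The highest points are the pair past the end of Lpin2 (3.02 and 3.95) and the Lpin1 pair upstream of the start of NM_001355598 (2.45 and 2.27). That start is not the one at the ringed Lpin1 peak.

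The peak nearest to an annotated start, 1 per gene, had small fasting differences. Ordered by their mean over 12 libraries they were Agpat2 (553 normalized reads), Dgat1 (423), Lpin2 (320), Lpin1 (253), Gpam (218) and Dgat2 (183). All windows have the same length. Agpat2 ranged from 419 to 688 and Dgat1 from 347 to 513 between libraries, Lpin2 from 240 to 472, Lpin1 from 200 to 369, Gpam from 182 to 261 and Dgat2 from 90.3 to 280, so that the ranges of neighbours in this order overlapped. Agpat2 stood at percentile 99.5 of all peaks by this mean, and Dgat2 at percentile 72.6.

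Of these 6 peaks the ones at Lpin2, Lpin1 and Dgat2 were higher in fasted mice. The Lpin2 start had 320, 297 and 310 normalized reads in fasted fresh libraries and 281, 280 and 240 in fed fresh ones, and 364, 370 and 472 in fasted frozen and 294, 295 and 317 in fed frozen ones. The fasted libraries were above the fed ones within each preparation, and the difference was 0.31 ± 0.07 (adjusted p = 0.00743, limma). Scaled to gene-start peaks it did not pass (adjusted p = 0.0858, limma). At the Lpin1 start the mice averaged 285 ± 36.6 fasted and 221 ± 17.8 fed (SD, n = 3 each), a difference of 0.35 ± 0.10 (adjusted p = 0.0205, limma). At the Dgat2 start they averaged 194 ± 10.8 fasted and 171 ± 5.23 fed, a difference of 0.23 ± 0.07 (adjusted p = 0.0376, limma). The calls at Lpin1 and Dgat2 were lost with libraries scaled to gene-start peaks and when single mice were left out, namely fed B, fed C or fasted A at Lpin1 and fed A, B or C or fasted A or C at Dgat2 (adjusted p up to 0.115 and 0.306 over all settings).

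The starts of Dgat1, Agpat2 and Gpam did not pass. Dgat1 averaged 444 ± 9.24 normalized reads in fasted and 403 ± 15.2 in fed mice (difference 0.13 ± 0.05, adjusted p = 0.0827, limma), and passed in frozen liver alone (0.19 ± 0.07, adjusted p = 0.0488, limma), a call that was lost when any single frozen library but fasted C was left out (adjusted p up to 0.568 over all settings). Agpat2 averaged 576 ± 22.7 fasted and 530 ± 19.7 fed (0.12 ± 0.05, adjusted p = 0.113, limma). The upstream Gpam start averaged 219 ± 8.71 fasted and 218 ± 15.1 fed (0.01 ± 0.07, adjusted p = 0.944, limma). The Gpam start had the smallest difference of the 6. Fitted over 12 libraries with no replicate block, which counts both libraries of a mouse as independent, the Dgat1 and Agpat2 starts passed (adjusted p = 0.0233 and 0.0311, limma).

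**Figure D2:**
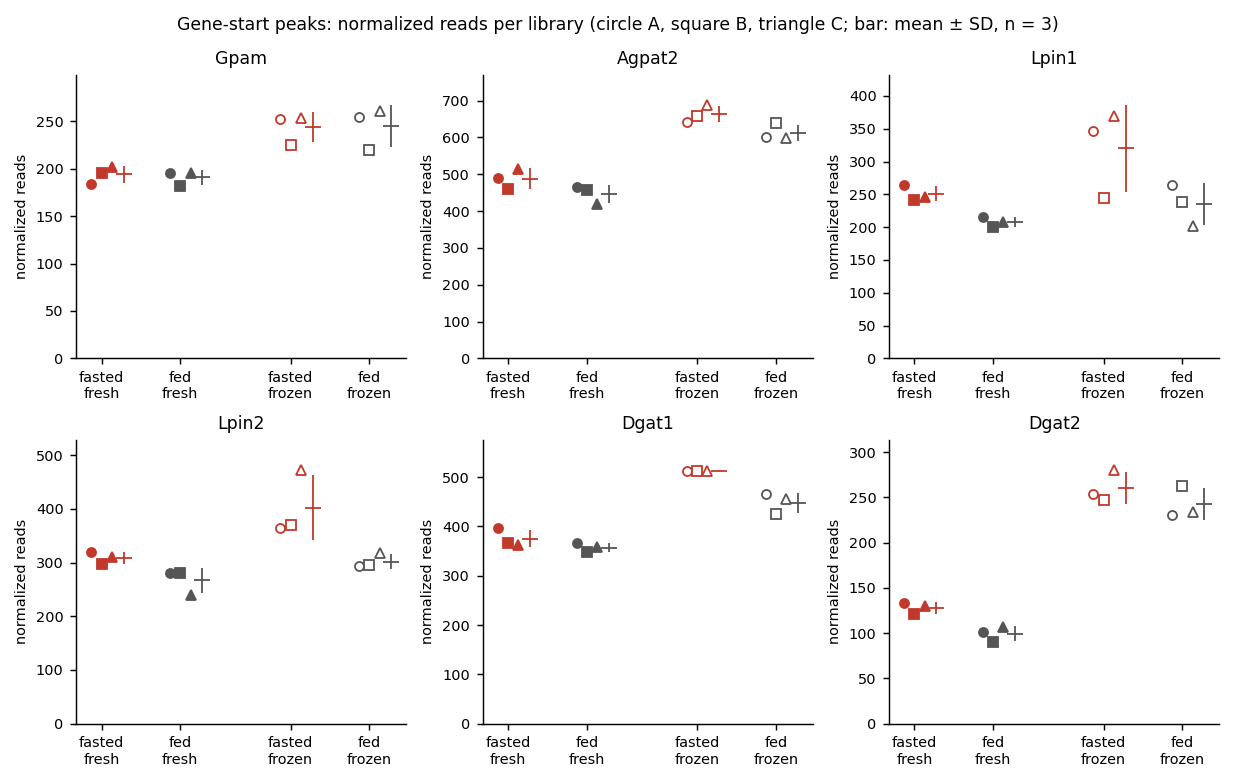
Normalized reads per library at the gene-start peak of each gene, from 0, in fasted fresh, fed fresh, fasted frozen and fed frozen liver; circles, squares and triangles are the column letters A, B and C, and bars are the mean ± SD of 3 libraries. Dgat2 shows the widest gap between frozen and fresh libraries (231 to 280 against 90.3 to 133), and the Gpam groups overlap between fasted and fed.

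At Gpam, which catalyses the first acylation, the peak at the downstream start rose and a peak at the upstream start fell. The downstream start (chr19:55099324-55099524, 53 bp past the start of NM_008149) had 46.1, 53.0 and 40.7 normalized reads in fasted fresh and 21.3, 21.2 and 24.3 in fed fresh libraries. Frozen, it had 81.9, 96.8 and 95.7 fasted and 42.9, 23.9 and 45.6 fed. Fasted libraries were above fed ones within each preparation, with a difference of 1.17 ± 0.19 (2.31-fold, adjusted p = 0.00187, limma). The peak 102 bp before the upstream start, which shares 69 bp with the peak at that start, was lower in fasted mice, with 179 ± 14.8 against 220 ± 16.7 in fed mice (difference -0.29 ± 0.09, adjusted p = 0.0269, limma). That call was lost when fed A, fed B, fasted B or fasted C was left out (adjusted p up to 0.102 over all settings).

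The other Gpam peak with a difference above 1 lies in intron 3 of 20 of NM_008149 (chr19:55095763-55095963, 3.61 kb past the downstream start). It had 60.4, 57.1 and 76.8 normalized reads in fasted fresh and 34.6, 25.2 and 35.5 in fed fresh libraries, and 105, 105 and 113 in fasted frozen and 42.9, 44.6 and 42.9 in fed frozen ones. All 6 fasted libraries were above all 6 fed ones (difference 1.15 ± 0.15, adjusted p = 0.000653, limma). Peaks 11.2 kb before the downstream start, in intron 1 of the longer transcript, and 11.5 kb past it, in intron 7 of 20, were higher by 0.67 ± 0.12 and 0.64 ± 0.11 on the log2 scale. The first averaged 144 ± 11.1 normalized reads in fasted and 90.5 ± 11.8 in fed mice. A pair of overlapping intergenic peaks 12.3 and 12.2 kb upstream rose by 0.39 ± 0.09 and 0.34 ± 0.11, and a peak 18.1 kb upstream fell (-0.55 ± 0.14, with 96.8 ± 19.0 normalized reads in fasted and 141 ± 14.7 in fed mice). The call at 12.2 kb was lost under 7 of 12 settings, leaving out fed A, fed B, fasted A or fasted B among them, and that at 18.1 kb without fed B or fasted A. The other 7 Gpam peaks, the upstream start among them, did not pass and had differences of -0.35 to 0.43.

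At Agpat2, the second acyltransferase, none of 6 peaks passed in the mean of both preparations, and 2 of them had an unadjusted p under 0.05. The lowest p was at an intergenic peak 10.7 kb upstream. It had 42.1, 56.6 and 28.3 normalized reads in fasted fresh and 75.4, 65.1 and 58.5 in fed fresh libraries, and 39.1, 56.7 and 13.4 in fasted frozen and 65.5, 57.3 and 59.6 in fed frozen ones. All 6 fasted libraries were below the fed ones, but the fasted mice spread widely, with mouse C lowest in both preparations (difference -0.81 ± 0.32, adjusted p = 0.0743, limma). Over 12 libraries with no replicate block it passed (adjusted p = 0.0158, limma). Reads at this peak were few, 6 to 109 per library in fasted mice and 36 to 89 in fed mice. A peak in intron 1 of 5, 4.26 kb past the start, had 336 ± 5.92 in fasted and 376 ± 24.8 in fed mice (difference -0.16 ± 0.06, adjusted p = 0.0763, limma). It passed in fresh liver alone (-0.20, adjusted p = 0.0479, limma), and no longer when any single fresh library but fed C was left out (adjusted p up to 0.162 over all settings).

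Lpin1, the phosphatidate phosphatase with a coactivator role, had 8 higher peaks, 6 of them between 8.15 and 19.7 kb upstream of the start of NM_001355598. The one with the largest difference lies 9.33 kb upstream of that start (chr12:16620200-16620400). It had 110, 86.2 and 88.1 normalized reads in fasted fresh and 24.8, 22.6 and 13.8 in fed fresh libraries, and 155, 101 and 69.0 in fasted frozen and 13.1, 12.7 and 19.3 in fed frozen ones. No fasted library overlapped a fed one, and mice averaged 102 ± 27.7 fasted and 17.7 ± 1.22 fed (5.76-fold, difference 2.45 ± 0.21, adjusted p = 0.000146, limma). A peak at 9.44 kb shares 96 bp with it and had a difference of 2.27 ± 0.26 (adjusted p = 0.000363, limma). The deposited table annotates this stretch as intergenic, while RefSeq on GRCm38.p6 gives Lpin1 an extent that holds it (chr12:16535669-16653903). The gene-start peak of Lpin1 lies at another start (chr12:16589708-16589908, 38 bp before that of NM_015763). The start of NM_001355598 lies in the Lpin1 promoter entry that overlapped no peak (chr12:16610917-16611216). Distances upstream at Lpin1 are counted from NM_001355598 throughout.

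Around 19.4 to 20.0 kb upstream of the same start stand 3 more peaks. The middle one, at 19.7 kb, had 139, 61.8 and 141 normalized reads in fasted fresh and 51.5, 34.5 and 21.7 in fed fresh libraries, and 200, 69.7 and 189 in fasted frozen and 64.3, 49.4 and 29.8 in fed frozen ones. The fasted libraries of mouse B were much lower than those of A and C in both preparations, and in frozen liver the lowest fasted library was close to the highest fed one (difference 1.60 ± 0.37, adjusted p = 0.00928, limma). The neighbour at 19.4 kb was higher by 1.08 ± 0.33 (adjusted p = 0.0311, limma), and the one at 20.0 kb did not pass (0.29 ± 0.21, adjusted p = 0.307, limma). The same mouse stood out at 7.70 kb, where fasted libraries had 227, 148 and 250 normalized reads fresh and 352, 180 and 376 frozen, and fed libraries 205, 94.3 and 74.9 fresh and 233, 135 and 92.9 frozen. There fed mouse A reached the fasted range, and the difference of 0.92 ± 0.32 did not pass (adjusted p = 0.0508, limma).

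Of 3 overlapping peaks 8.03 to 8.25 kb upstream of the start of NM_001355598, the one at 8.25 kb was higher by 0.54 ± 0.15 (adjusted p = 0.0191, limma) and the one at 8.15 kb by 0.25 ± 0.08 (adjusted p = 0.0407, limma), while the one at 8.03 kb had 0.10 ± 0.07. Inside the gene, a peak in intron 10 of 20 averaged 87.5 ± 12.8 normalized reads in fasted and 55.9 ± 7.17 in fed mice (difference 0.63 ± 0.16, adjusted p = 0.014, limma). The only Lpin1 peak that fell lies 1.85 kb before the start of NM_015763, with 239 ± 48.9 in fasted and 333 ± 54.0 in fed mice (-0.48 ± 0.15, adjusted p = 0.0361, limma). Of these calls, those at 9.33, 9.44 and 19.7 kb passed in every setting tried. The others were each lost in at least 1 setting, for intron 10 without fed B or fasted A, for 1.85 kb without fed A, fed B, fasted A or fasted B, for 19.4 kb and 8.25 kb without fed B, fed C or fasted A, and for 8.15 kb without any single mouse other than fasted B.

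At Lpin2, the lipin whose human counterpart is mutated in Majeed syndrome, the second start did not pass where the first did, and the starts were not tested against each other. The second start (145 bp before the start of NM_001164885, chr17:71204409-71204609) averaged 296 ± 50.9 normalized reads in fasted and 293 ± 29.1 in fed mice, a difference of 0.00 ± 0.12 (adjusted p = 0.993, limma). In intron 1 of NM_022882, 646 bp past the start of that transcript, a peak fell to 28.2 ± 2.47 in fasted mice, against 50.4 ± 2.83 in fed mice (-0.79 ± 0.18, adjusted p = 0.00815, limma). Another in that intron, 7.27 kb past the same transcript start in a MaLR long terminal repeat, averaged 49.3 ± 5.75 in fasted and 81.7 ± 6.71 in fed mice (-0.73 ± 0.15, adjusted p = 0.0051, limma). The start of NM_022882 lies downstream of the first start named above. The treatment of reads that match several places, which matters at repeats, is not given in the sources used here. A peak 20.0 kb past the second start also fell (-0.53 ± 0.15), while peaks 18.3 kb before the first start and 2.28 kb before the second rose (0.47 ± 0.15 and 0.29 ± 0.10). These 3 calls were lost when single mice were left out, namely fed A or fed B for the lower peak, fed B, fed C, fasted A or fasted B at 18.3 kb, and any but fasted B at 2.28 kb.

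The largest fasting differences of all 69 peaks belonged to a pair assigned to Lpin2 that lies 6.37 kb past the end of that gene, within Emilin2, which encodes an extracellular matrix glycoprotein (RefSeq extent chr17:71252172-71311556). No peak of the table was assigned to Emilin2. The peak in exon 5 of 8 of NM_001357336 (chr17:71256378-71256578) had 86.2, 55.1 and 66.7 normalized reads in fasted fresh and 6.21, 5.31 and 5.91 in fed fresh libraries, and 81.9, 63.6 and 57.9 in fasted frozen and 3.57, 0 and 4.38 in fed frozen ones. Every fasted library was far above every fed one, and mice averaged 68.6 ± 13.5 fasted and 4.23 ± 1.37 fed (16.2-fold, difference 3.95 ± 0.38, adjusted p = 0.000206, limma). The low values rest on few reads, 26 to 127 per library in fasted mice and 0 to 9 in fed mice. Its neighbour (chr17:71256189-71256389) averaged 99.1 ± 15.3 fasted and 12.3 ± 3.84 fed (8.06-fold, difference 3.02 ± 0.25, adjusted p = 0.00014, limma). Without this pair Lpin2 had 3 higher and 3 lower of 10 peaks.

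**Figure D3:**
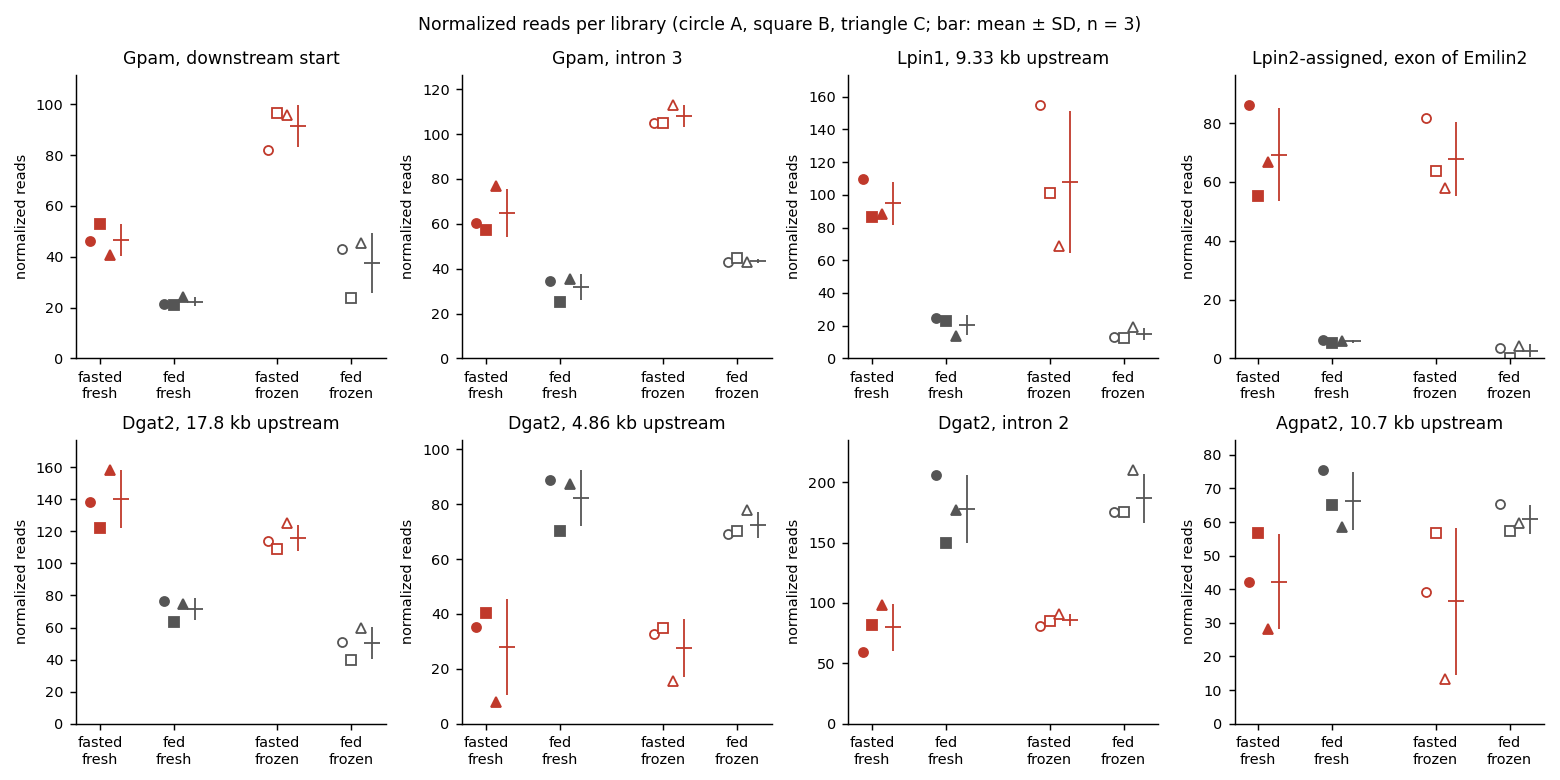
Normalized reads per library, from 0, at 8 peaks of Gpam, Lpin1, Lpin2, Dgat2 and Agpat2; columns run fasted fresh, fed fresh, fasted frozen and fed frozen, symbols are the letters A, B and C, and bars are the mean ± SD of 3 libraries. Within each preparation, fasted libraries lie above fed ones in the upper row and in the first panel of the lower row (Dgat2 at 17.8 kb). They lie below fed ones in the other 3, where fasted mouse C is lowest at Dgat2 4.86 kb upstream (7.91 and 15.6) and at Agpat2 (28.3 and 13.4).

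The acyltransferases of the last step differed in how many peaks they had. Dgat1 had its start and 1 peak in intron 1 of 16, with 51.8 ± 12.1 normalized reads in fasted and 54.6 ± 6.17 in fed mice (-0.13 ± 0.21, adjusted p = 0.661, limma). Dgat2, an enzyme unrelated to Dgat1 in sequence, had peaks that moved in both directions within 20 kb of its start. In intron 2 of 7 (chr7:99168858-99169058) it had 59.0, 82.1 and 98.3 normalized reads in fasted fresh and 206, 150 and 177 in fed fresh libraries, and 81.0, 85.4 and 91.2 in fasted frozen and 175, 175 and 210 in fed frozen ones. Here all fasted libraries were below all fed ones (0.455-fold, difference -1.14 ± 0.13, adjusted p = 0.000344, limma).

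The opposite held 17.8 kb upstream (chr7:99200385-99200585), where fasted libraries had 138, 122 and 158 normalized reads fresh and 114, 109 and 125 frozen, and fed libraries 76.3, 63.7 and 74.9 fresh and 51.2, 39.8 and 59.6 frozen. All fasted libraries were above all fed ones (2.10-fold, difference 1.08 ± 0.14, adjusted p = 0.000598, limma). At 4.86 kb upstream (chr7:99187473-99187673) the values were 35.3, 40.5 and 7.91 in fasted fresh and 88.7, 70.4 and 87.4 in fed fresh libraries, and 32.8, 34.9 and 15.6 in fasted frozen and 69.1, 70.1 and 78.0 in fed frozen ones. Fasted mouse C was the lowest in both preparations, and the groups did not overlap (difference -1.62 ± 0.38, adjusted p = 0.00968, limma).

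Nearer the start of Dgat2, peaks in intron 1 at 714 and 957 bp past the start were higher by 0.55 ± 0.12 and 0.43 ± 0.12 on the log2 scale. Peaks in the same intron at 3.22 and 6.83 kb past the start were lower (-0.56 ± 0.14 and -0.51 ± 0.16). Upstream, the peaks at 23.8 and 26.2 kb were higher (0.52 ± 0.13 and 0.52 ± 0.15). The peak 379 bp before the start had 241 ± 19.6 normalized reads in fasted and 229 ± 7.80 in fed mice and did not pass (0.07 ± 0.08). Neither did the most open Dgat2 peak, 14.6 kb into the gene in intron 2, with 407 ± 35.2 fasted and 372 ± 10.5 fed (0.11 ± 0.07). The calls at 957 bp and 26.2 kb were lost with libraries scaled to gene-start peaks, and 4 calls were lost when single mice were left out. These were 957 bp (fed A, fed C, fasted A or fasted B), 26.2 kb (fed A, fed C or fasted A), 3.22 kb (fed A) and 6.83 kb (fed B, fed C, fasted A or fasted B).

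Whether the fasting difference was seen in both preparations was asked next. In fresh liver 18 of the 69 passed as higher with fasting and 11 as lower, against 27.6% of all peaks called, 11.4% higher and 16.1% lower. In frozen liver 25 were higher and 5 lower, against 27.8% called, 12.8% higher and 15.0% lower. Scaled to gene-start peaks, 11 were higher and 16 lower in fresh liver, so the larger direction turned, and 14 were higher and 11 lower in frozen liver. Higher in both were 14 peaks and lower in both 4, and none passed in opposite directions. Such joint calls were not counted over all peaks, so whether these numbers are particular to the members was not tested. The difference between the preparations was tested as an interaction over 12 libraries without the mouse as a term, and 0 of 69 member peaks passed by limma, as did 0.0% of all peaks. With the column letter as replicate block, which sets the preparations against each other within a mouse, 0 member peaks and 395 of all peaks passed. Under the block 8 member peaks had an unadjusted p under 0.05, and this was not counted over all peaks. Without the block the lowest p was at the Gpam peak 11.2 kb before the downstream start, where the fasting difference was 0.96 in frozen and 0.38 in fresh liver (unadjusted p = 0.0247, limma without the block). It was the only member under 0.05 in that fit, where 2702 of all peaks were. The counts of fasting calls fell to 17 in fresh liver without fed B or without fasted A and to 19 without fed A, and to 16 in frozen liver without fed B. Over all peaks, calls in fresh liver fell from 14477 to 9747, 9813 and 10180 in these settings. In frozen liver they fell from 14578 to 8711. The authors' deposited table gives 22 member peaks with an adjusted p below 0.05 for fresh tissue, and 22 of these passed here with the same sign. For frozen tissue the authors' deposited table gives 30, of which 28 passed here with the same sign.

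Nuclei from frozen liver gave higher values than nuclei from fresh liver at many member peaks. Frozen against fresh, 33 of 69 peaks were higher, 8 lower and 28 did not pass (limma over 12 libraries with feeding state as a covariate). This share of 59.4% stood near the 61.5% of all peaks, but of all peaks 28.7% were higher and 32.8% lower. The median difference was 0.26 over members and -0.05 over all peaks. At 16 member peaks all 6 frozen libraries lay above all 6 fresh ones and at none below, together 23.2% against 26.9% of all peaks. Of 10 member peaks annotated as promoters 9 were higher and none lower, against 68.6% called of all promoter peaks, 40.8% higher and 27.8% lower. Higher and lower peaks numbered 11 and 1 at Gpam, 3 and 0 at Agpat2, 5 and 2 at Lpin1, 1 and 4 at Lpin2, 1 and 0 at Dgat1 and 12 and 1 at Dgat2.

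The Dgat2 start had 254, 247 and 280 normalized reads in fasted frozen and 133, 121 and 130 in fasted fresh libraries, and 231, 263 and 234 in fed frozen and 101, 90.3 and 107 in fed fresh ones. Every frozen library was above every fresh one, and the difference of 1.15 ± 0.07 (adjusted p = 2.38e-09, limma) was larger than that of fasting at this peak (0.23 ± 0.07). The start of Agpat2 was higher by 0.45 ± 0.04, of Dgat1 by 0.39 ± 0.05, of Gpam by 0.34 ± 0.06, of Lpin2 by 0.27 ± 0.07 and of Lpin1 by 0.25 ± 0.09. Those of Lpin2 and Lpin1 did not pass after quantile normalization, and that of Lpin1 not without fasted fresh B, fed frozen A, fasted frozen A or fasted frozen C either. The largest freezing difference of a member was at Lpin1, 8.15 kb upstream of the start of NM_001355598, with 362 ± 47.6 normalized reads frozen and 117 ± 13.4 fresh (SD, n = 6 each, difference 1.62 ± 0.07, adjusted p = 1.23e-10, limma). At Gpam it was 12.2 kb upstream (1.23 ± 0.10, with 176 ± 30.6 frozen and 74.1 ± 11.2 fresh).

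Peaks with the largest fasting differences were not those with the largest freezing differences. At Lpin1 9.33 kb upstream the freezing difference was -0.14 ± 0.21, with 61.7 ± 58.0 normalized reads frozen and 57.6 ± 41.7 fresh. For the pair within Emilin2 it was -0.47 ± 0.24 and -0.62 ± 0.38, and in intron 2 of Dgat2 0.11 ± 0.11. None of these passed, except that the -0.47 did in 2 other settings. These were the column letter as replicate block (adjusted p = 0.0295, limma) and 1 fit with a single library left out. At the downstream Gpam start and in intron 3 of Gpam both differences passed, with freezing at 0.82 ± 0.17 and 0.60 ± 0.13. Of the 25 member peaks higher with fasting 13 were also higher with freezing, 3 lower and 9 not called, near the 47.8% of all 69 that were higher with freezing. Of all peaks higher with fasting 39.9% were higher with freezing and 20.2% lower. Of the 10 lower member peaks 3 were higher with freezing, 3 lower and 4 not called, and of all lower peaks 8.59% were higher and 52.0% lower.

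**Figure D4:**
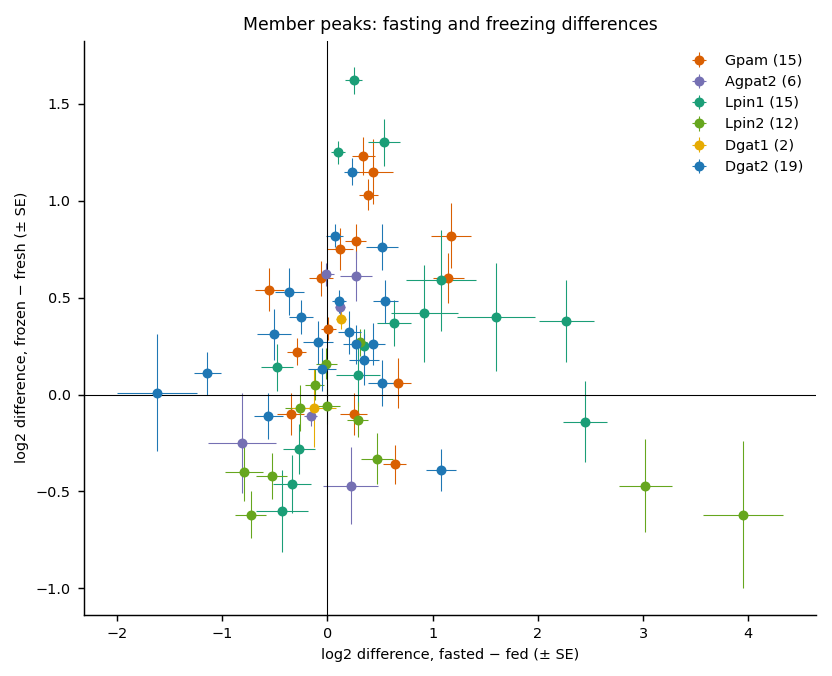
Each member peak by its fasting difference (fasted minus fed, log2, ± SE, horizontal axis) and its freezing difference (frozen minus fresh, log2, ± SE, vertical axis), coloured by gene. The points farthest right, the pair assigned to Lpin2 (3.02 and 3.95), lie below 0 on the freezing axis, and the highest point is the Lpin1 peak 8.15 kb upstream (1.62).

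Other genes of glycerolipid synthesis were counted on the deposited scale only, and their split was not tested against that of the 6 genes. Of 15 gene names listed, which include older names of the same genes, 11 had peaks, 60 in all. Of these 15 were higher in fasted mice and 14 lower, with a median difference of 0.02, and with freezing 18 were higher and 18 lower. Of all peaks 34.6% were called for fasting, 16.5% higher and 18.1% lower. For freezing 61.5% of all peaks were called, 28.7% higher and 32.8% lower. Gpat3, a further glycerol-3-phosphate acyltransferase, had 6 higher and 1 lower of 8, and its promoter had 144 to 219 normalized reads in fasted and 90.8 to 124 in fed libraries (0.71 ± 0.12, adjusted p = 0.00212, limma). Gpat4, of the same enzyme group, had 1 higher and 4 lower of 12, the lowest p being in intron 4 (-1.42 ± 0.18, adjusted p = 0.000522, limma). Agpat5 had 3 higher and 1 lower of 4, and its lower peak, in intron 1, had 33.7 to 75.3 in fasted and 89.2 to 198 in fed libraries (-1.34 ± 0.12, adjusted p = 0.000154, limma). The monoacylglycerol acyltransferase genes Mogat1 and Mogat2 had none higher and 3 of 6 and 5 of 8 lower, with -0.99 ± 0.11 and -0.69 ± 0.10 at their peaks of lowest p. Groups did not overlap at any of these 5 named peaks, nor at 12.9% of all peaks. The 5 were picked by their lowest p for fasting, so this lack of overlap follows largely from the choice.

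The genes whose start peak was most alike over the 12 libraries, by Pearson correlation of log2 values among 8376 start peaks within 1 kb and above the median level, were Nr4a1 (r = 0.924), Ppp2r5b (0.922) and Grn (0.920) for Lpin1. They were Elac1 (0.974), Arpc5 (0.968) and Cldn12 (0.965) for Lpin2, and Nomo1 (0.952), Ccnk (0.952) and Syf2 (0.949) for Gpam. For Agpat2 they were Fbxo31 (0.991), Fam71e1 (0.990) and Serf2 (0.990), for Dgat1 Iba57 (0.988), Gga3 (0.986) and Adamts6 (0.986), and for Dgat2 Drap1 (0.994), Ubap2l (0.994) and Zfand3 (0.993). Between the 6 genes r ran from 0.502 (Gpam and Lpin1) to 0.966 (Agpat2 and Dgat2). All points share the libraries and their size factors, and the freezing difference is part of these correlations.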

How the data were processed

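Each reaction transposed about 25000 nuclei bound to beads (30 min, 37 °C), and 12 PCR cycles followed, per the labels. BWA (0.7.5a-r405), SAMtools, HOMER, DESeq2 and mm10 are listed in the submitters' processing notes with no step given. Treatment of duplicates, of reads with several matches and of the transposase offset is not given in the sources used here.

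The authors deposited 52530 merged peaks with, per the file headers, a nearest gene and the signal of 12 libraries, as reads divided by 1 size factor per library. Each library's values were whole multiples of one step (tolerance 1e-06 reads), and depths and reads per peak take that step as 1 read. Log2 fold changes and adjusted p-values deposited by the authors are used only as theirs, and the peak score deposited by the authors was not used. All per-library columns were used.

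The columns carry letters that match no mouse number of the labels. Same-letter fresh and frozen columns deviated together (r = 0.329 to 0.640 for the 6 pairs, highest other r = 0.0213), each above 0.1, so the pairing comes from the data. P-values measure the spread between these mice or libraries.

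Values were fitted as log2(value + 1), unfiltered, with limma 3.58.1 (R 4.3.3), using a trended prior, two-sided tests and Benjamini-Hochberg adjustment over all peaks at a threshold of 0.05. The code was checked on simulated data. Alternatives were a pseudocount of 5, leaving out the lowest 25% of peaks, 2 other scalings, a prior without trend, the replicate block and leaving out each mouse or library. Named for each gene were the peak nearest its start and those of lowest p for fasting and freezing, with other members given freely. For other glycerolipid genes up to 5 were named by lowest p. The members, lists and motifs were chosen with earlier results of these data known. Depths bound counting error only, because copies made by PCR are not separate molecules.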

Additional observations from a re-analysis of the deposited data

How the results depend on the processing

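Of the 35 peaks called for fasting in the mean of both preparations, 17 (13 higher, 4 lower) passed in every setting tried for them, up to 12. Their number was 36 with a pseudocount of 5, 37 after quantile normalization, 28 with a prior without trend, 28 with libraries scaled to gene-start peaks and 47 over 12 libraries with preparation as a covariate and no replicate block. It was 19 of 47 without the lowest 25% of peaks, where fewer peaks were tested, and 21 to 35 when single mice were left out. Over all peaks, the 18163 calls became 18331 with the pseudocount of 5, 19108 after quantile normalization and 16143 without trend. They became 16910 scaled and 25292 over 12 libraries with no replicate block. Without the lowest 25% of peaks they were 11780 of 39397, and 11500 to 17672 without single mice. In fresh liver the 29 calls became 13 without the lowest 25% of peaks, 27 (11 higher, 16 lower) scaled to gene-start peaks and 17 to 29 without single libraries. In frozen liver the 30 calls became 18 without the lowest 25%, 25 (14 higher, 11 lower) scaled and 16 to 31 without single libraries. Over all peaks, the 14477 calls in fresh liver became 8671, 14801 and 9747 to 14642 in these 3 kinds of setting. The 14578 in frozen liver became 9682, 14004 and 8711 to 14001. The 41 freezing calls became 37 (26 higher, 11 lower) scaled and 36 to 43 without single libraries, and 51 with the letter as replicate block, in which all 41 stayed. Over all peaks, the 32316 freezing calls became 32824 scaled, 30453 to 32312 without single libraries and 36805 with the block. The block left 0 member peaks in the interaction (8 with an unadjusted p under 0.05) and 395 of all peaks. For freezing, among the peaks nearest a start or of lowest p, it changed only the call of 1 peak within Emilin2. The other freezing calls it added were at other member peaks. For fasting, among the peaks nearest a start or of lowest p, the fit over 12 libraries with no replicate block added 3. These were the Agpat2 and Dgat1 starts and Agpat2 10.7 kb upstream (adjusted p = 0.0311, 0.0233 and 0.0158, limma). Where the counts moved, the cause was not tested unless given.

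For fasting, no called value turned its sign among the named peaks. Among differences that had not passed, scaling to gene-start peaks gave -0.12 at the Gpam start and -0.01 at the Agpat2 start, -0.10 at the Gpam start and -0.05 at the Dgat1 start in fresh liver, and -0.02 at the Agpat2 start and -0.03 at the Dgat2 start in frozen liver. Quantile normalization gave -0.04 at the Gpam start, and leaving out single mice or libraries gave -0.05 to 0.04 there in the mean, -0.01 to 0.06 in fresh and -0.08 to 0.05 in frozen liver. For freezing, quantile normalization turned the called -0.40 at the Lpin2 peak 646 bp past the start of NM_022882 to 0.07. It turned the differences that had not passed to 0.14 at Agpat2 10.7 kb upstream and to 0.06 at Lpin1 9.33 kb upstream. Leaving out single libraries gave -0.42 to 0.03 at that Agpat2 peak. The Lpin2 call was also lost without fed fresh B or C or fed frozen A, B or C. The cause of these turns was not tested. A test on recovered reads with edgeR, listed as an alternative, was not run, because in 8 of 12 columns the smallest value was more than 1 step. Depth limits the peaks with the fewest reads, such as the pair within Emilin2 in fed mice.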
